A study of Mus musculus with 10 samples.

Results

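Hedgehog signalling was followed from its ligand to its transcriptional readouts in cultured mouse molars. The genes are 9 members of the pathway (Shh, Ptch1, Smo, Gli1, Gli2, Gli3, Hhip, Gas1 and Boc), found by their symbols in the GENCODE mouse annotation, and all 9 are among the 18381 genes of the count table. First lower molars of wild type C57BL/6JOlaHsd embryos were taken at embryonic day 14 and kept in hanging drops for 6 h. From every embryo (1, 2, 3, 4 and 6 in the labels) the tooth of one side was cultured in medium with mouse recombinant insulin-like growth factor 1 (IGF1, 750 ng per ml) and that of the opposite side in medium with the same volume of vehicle, which is phosphate-buffered saline with bovine serum albumin. This gives 5 IGF1 teeth and 5 control teeth, each sequenced as its own library, with left and right sides balanced.

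Sonic hedgehog, encoded by Shh, is a secreted protein made in the tooth germ by dental epithelium, above all by the enamel knot, a small signalling centre of the cap stage. The ligand binds Patched receptors and thereby releases the membrane protein Smoothened (Smo), which acts in the primary cilium on the Gli transcription factors. Gas1, Boc and Cdon are co-receptors that help the ligand bind, and Hhip is a surface protein that traps it. Gli1, Ptch1 and Hhip are themselves transcribed in responding cells, so that their RNA is commonly read as a measure of pathway activity, whereas Smo, Gli2 and Gli3 are mostly present without the signal.

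Shh was lower in the IGF1 tooth than in the control tooth of all 5 embryos, with a 2.48-fold lower level. Ptch1, the main receptor and a target, was 1.33-fold lower, also in all 5 embryos. The other target readouts, Hhip and Gli1, were 1.49-fold and 1.21-fold lower without passing the threshold, and Smo, Gli2, Gli3, Gas1 and Boc differed by less than 1.09-fold. The threshold was an adjusted p-value of 0.05 in edgeR's quasi-likelihood test with embryo as a block, adjusted by the method of Benjamini and Hochberg over all 14504 genes tested. By this test 2 of the 9 members were lower and 0 were higher. Of all genes tested, 4.76% were lower and 6.72% higher, and 11.5% passed with both directions counted. Shh and Ptch1 were lower in all 5 embryos, as were 11.2% of all genes tested. All 9 fold changes were below 0, as were 7333 of the 14504 over all genes, and the median of the members was -0.12 on the log2 scale against -0.00380 over all genes.

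**Figure D1:**
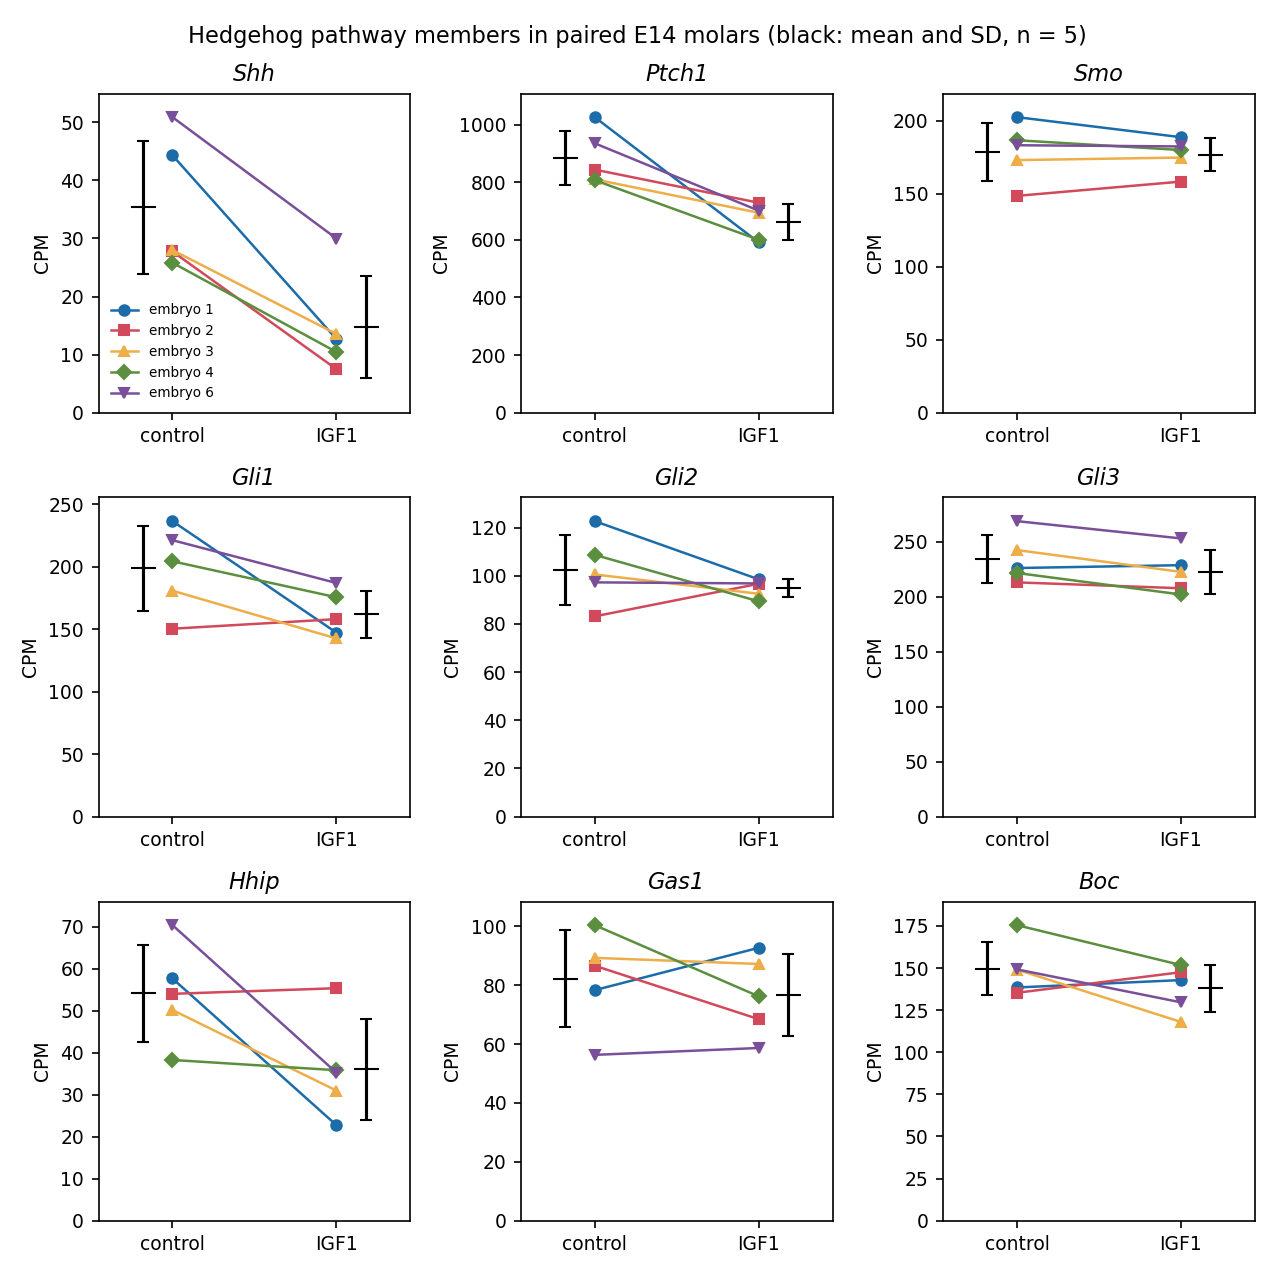
Level of each Hedgehog pathway member in CPM (counts scaled to the size of each library, vertical axes starting at 0) in the control and the IGF1 tooth of each embryo, with lines joining the teeth of an embryo and black bars for the mean and SD of 5 teeth. All 5 lines of Shh and of Ptch1 go down, while those of Smo and Gli3 stay nearly level.

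The libraries held 2845773 to 8763113 counts, and both teeth of embryo 1 had the lowest totals. The 9 dental epithelium markers used for the check of the tissue, among them Krt14 and Cdh1, summed to between 1588 and 2377 CPM in the control teeth and between 1891 and 2469 CPM in the IGF1 teeth. The 10 dental mesenchyme markers, among them Pax9, Barx1 and Msx1, summed to between 5540 and 6885 CPM in the control teeth and between 5059 and 6677 CPM with IGF1. Both tissues of the tooth germ were thus present in every library. Schwann cell, cartilage and skeletal muscle markers summed to less than 97 CPM in each library. Sequencing whole teeth cannot tell fewer cells of a type from less RNA per cell.

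Promoter sequences from RefSeq on GRCm38.p6 were at hand for 6 of the members (Ptch1, Smo, Gli2, Gli3, Hhip and Gas1). Those of Ptch1 and Hhip are shown because both genes are direct targets of the pathway. Each run holds the 250 bases before the start of transcription in RefSeq, written 5′ to 3′ on the strand of the gene, at chr13:63565736-63565985 (minus strand) for Ptch1 and chr8:80058009-80058258 (minus strand) for Hhip. The RefSeq start of Ptch1 lies 7863 bases inside the gene as GENCODE draws it, and that of Hhip lies 2 bases outside, so that the window of Ptch1 is not next to the outermost GENCODE start. The capitals mark the GC box, GGGCGG or its reverse complement CCGCCC, which is a common element of promoters without a TATA box.
Ptch1: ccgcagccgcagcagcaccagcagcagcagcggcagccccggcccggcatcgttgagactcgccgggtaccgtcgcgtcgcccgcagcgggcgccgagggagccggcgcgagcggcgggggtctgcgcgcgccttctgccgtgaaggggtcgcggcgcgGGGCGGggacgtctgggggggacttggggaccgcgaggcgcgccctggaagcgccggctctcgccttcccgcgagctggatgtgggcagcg
Hhip: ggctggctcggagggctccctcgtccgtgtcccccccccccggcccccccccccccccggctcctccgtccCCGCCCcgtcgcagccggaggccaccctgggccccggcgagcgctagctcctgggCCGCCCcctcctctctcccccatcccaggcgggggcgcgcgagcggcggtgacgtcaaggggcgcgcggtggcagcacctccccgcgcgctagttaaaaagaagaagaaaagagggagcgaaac

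The Ptch1 window consisted of G and C to 78.4% and that of Hhip to 76.0%, against a median of 52.4% over all 32851 promoter windows of this length. A GC box on either strand occurred in 5 of the 6 member windows, all but that of Smo, and in 32.7% of all windows. The Gli binding consensus GACCACCCA, searched on both strands, was in 0 of the 6 member windows and in 0.225% of all windows. Its inner letters CCACCCA were also in 0 of the 6, and in 8.11% of all windows. These letters are absent only from the bases searched.

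Shh (ENSMUSG00000002633, chr5:28456815-28467256 on GRCm38, minus strand) is the ligand gene and showed the largest change among the members. It stood at 44.3, 27.8, 28.0, 25.8 and 50.9 CPM in the control teeth of embryos 1, 2, 3, 4 and 6. It stood at 12.7, 7.49, 13.5, 10.4 and 30.0 CPM in the IGF1 teeth of the same embryos. The IGF1 tooth of embryo 6 was the highest of its group and lay above the control teeth of embryos 2, 3 and 4, so that the groups overlapped, but it was still below the control tooth of embryo 6. The mean fell from 35.4 ± 11.5 CPM (SD, n = 5) to 14.8 ± 8.79 CPM. The log2 fold change was -1.31 (SE 0.16, 95% interval -1.66 to -0.95), with an adjusted p of 0.000645 in edgeR's quasi-likelihood test. Of all 14504 genes tested, 109 (0.752%) had a log2 fold change of -1 or lower, and Shh was number 41 in the order from the lowest fold change. It passed the threshold in each of the 11 alternative analyses, with log2 fold changes from -1.49 to -1.17.

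Within embryos, the difference in log2 CPM was -1.78, -1.85, -1.03, -1.28 and -0.76 in embryos 1, 2, 3, 4 and 6. Because Shh is a gene of the epithelium, the 9 epithelial markers were set beside it. The log2 ratio of their summed level was 0.03, 0.25, 0.43, -0.13 and 0.32 in the same order, so that the sum was higher with IGF1 in 4 of the 5 embryos in which Shh was lower. Of the epithelial markers, 1 (Krt5) was higher past the threshold and 8 did not pass, and 4 of the 9 had fold changes below 0. Without embryo 3, 1 of the 9 was higher and 2 were lower past the threshold. Without embryo 2, 1 was higher and 1 lower, and without embryo 4, 2 were higher. Summed without Krt5, which was left out after seeing the data, the other 8 had a mean of 1211 CPM in the control teeth and 1209 CPM with IGF1, with log2 ratios of -0.16, 0.03, 0.30, -0.30 and 0.11, above 0 in 3 of 5 embryos. Hypoxia response genes also moved with the treatment. The summed level of 10 of them ran from 595 to 995 CPM in the control teeth and from 1316 to 4323 CPM with IGF1, with log2 ratios of 0.76, 2.52, 2.42, 0.97 and 1.05 within embryos. All 9 of them that could be tested were higher past the threshold, and Car9, which was too low to test, was at 0 in at least 1 control tooth. The low-count filter asked for about 1.42 CPM in at least 5 teeth. Adm (control median 0.909 CPM, highest control tooth 2.40 CPM) and Ankrd37 (lowest control tooth 0.454 CPM) met it largely through the IGF1 teeth. For both, a higher value with IGF1 was favoured beforehand, so their calls are no support for a direction. Without embryo 1, 8 of the hypoxia genes could be tested. The 5 haemoglobin genes of red blood cells were lower past the threshold, and their sum ran from 841 to 1406 CPM in the control teeth and from 598 to 1101 CPM with IGF1. Summed endothelial markers ran from 325 to 369 CPM and from 255 to 333 CPM, and macrophage markers from 43.0 to 67.2 CPM and from 37.1 to 50.1 CPM, with 1 marker of each list lower past the threshold (Cdh5 and Csf1r). The dental mesenchyme sum was also lower in 5 of 5 embryos, with log2 ratios of -0.05, -0.000403, -0.32, -0.16 and -0.13. Of its 10 markers, 9 had fold changes below 0, as had 7333 of all 14504 genes, and 1 (Vim, -0.42) passed the threshold. With DESeq2's size factors, its Wald test or limma-voom, or without embryo 1, 2 of the 10 passed, both lower. The cartilage sum was higher in 5 of 5 embryos, with log2 ratios of 0.33, 0.46, 0.02, 0.14 and 0.57. Of its 3 tested markers, 1 (Sox9, 0.43) was higher past the threshold. Beside the counts of all these lists, 4.76% of all genes tested were lower past the threshold and 6.72% higher. Without the block, 1 of the 5 haemoglobin genes and 0 of Krt5, Vim, Cdh5, Csf1r and Sox9 passed, against 8 of the 9 hypoxia genes. Leaving out 1 embryo also ended the calls of Krt5 and Sox9 (embryo 6), Cdh5 (embryo 2 or 4), Csf1r and Hba-a2 (embryo 3, 4 or 6), and the hypoxia gene Adm (embryo 2, 3, 4 or 6), DESeq2's Wald test those of Csf1r and Adm, and testing without a filter on low counts those of Hba-a2 and Adm. The part of these lists in the lower Shh, Ptch1, Hhip and Gli1 was not tested.

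**Figure D2:**
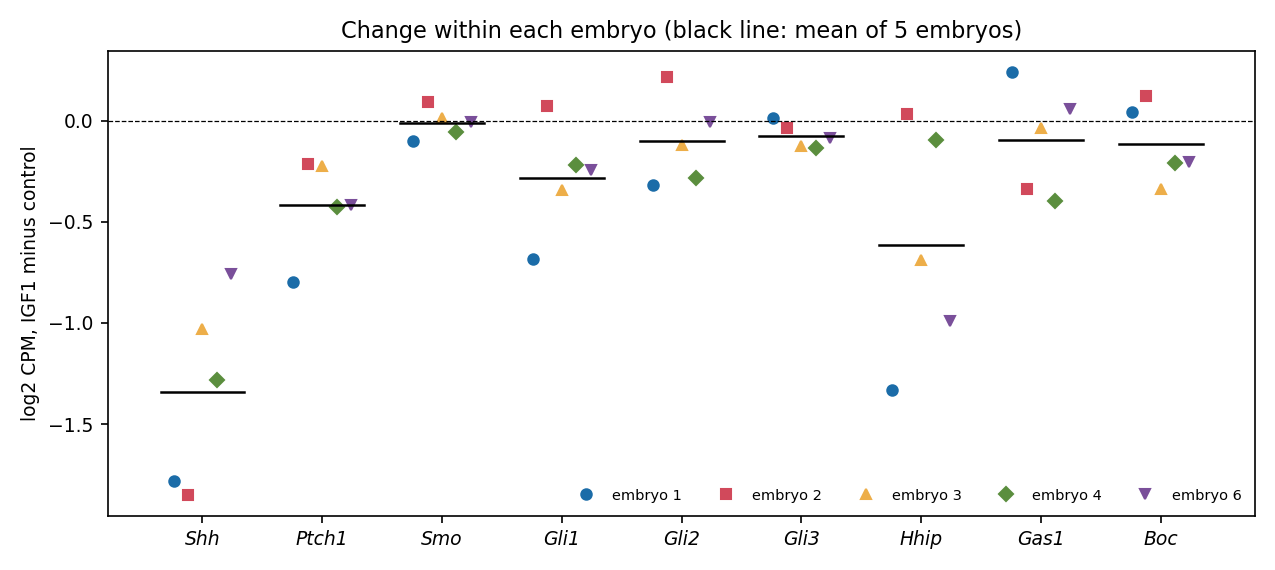
Difference in log2 CPM between the IGF1 and the control tooth of each embryo (symbols) for the 9 members, with the mean of 5 embryos as a black line. Shh runs from -1.85 in embryo 2 to -0.76 in embryo 6, and all 5 values lie below 0, as they do for Ptch1.

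The receptors and the protein they control came next. Ptch1 (ENSMUSG00000021466, chr13:63508328-63573598, minus strand) encodes the receptor that holds Smo inactive. Its levels were 1026, 844, 810, 807 and 935 CPM in the control teeth of embryos 1, 2, 3, 4 and 6, and 591, 729, 694, 600 and 701 CPM in their IGF1 teeth. Every IGF1 tooth was below every control tooth, a pattern shared by 3.03% of all genes tested. The mean fell from 884 ± 94.6 CPM to 663 ± 63.0 CPM (SD, n = 5). The log2 fold change was -0.41 (SE 0.09, 95% interval -0.61 to -0.22), with an adjusted p of 0.0130 in edgeR's test. Without embryo 4 the call was lost, with a log2 fold change of -0.41 and an adjusted p of 0.0515, and it held in the other 10 alternatives.

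Smo (ENSMUSG00000001761, chr6:29735503-29761365, plus strand), the transducer that Ptch1 restrains, had the smallest change of the 9 genes. It ran from 148 to 202 CPM in the control teeth and from 158 to 189 CPM in the IGF1 teeth. The log2 fold change was -0.01, with a 95% interval from -0.15 to 0.13, and 3 embryos were lower and 2 higher. The direction turned without embryo 1 or 4, where the value was 0.0117 and 0.00138.

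The co-receptors Gas1 (ENSMUSG00000052957, chr13:60174405-60177365, minus strand) and Boc (ENSMUSG00000022687, chr16:44485049-44558897, minus strand) were each lower in 3 of 5 embryos. Gas1, a protein anchored to the membrane by a lipid, ran from 56.3 to 100.4 CPM in the control teeth and from 58.7 to 92.7 CPM with IGF1. Its lowest control tooth and lowest IGF1 tooth both came from embryo 6. Boc, a relative of the cell adhesion molecules, ran from 135 to 175 CPM in the control teeth and from 118 to 152 CPM with IGF1. Their log2 fold changes were -0.10 (95% interval -0.32 to 0.11) for Gas1 and -0.12 (95% interval -0.30 to 0.06) for Boc, and neither passed the threshold.

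Hhip (ENSMUSG00000064325, chr8:79965851-80058006, minus strand) encodes the trap for the ligand. Among the 9 members, its log2 differences within embryos varied most (SD 0.58, n = 5, against 0.47 for Shh). It stood at 57.7, 54.1, 50.2, 38.3 and 70.4 CPM in the control teeth of embryos 1, 2, 3, 4 and 6. It stood at 22.8, 55.4, 31.0, 35.9 and 35.3 CPM in their IGF1 teeth. The IGF1 teeth of embryos 1, 3 and 6 were far below their control teeth, while those of embryos 2 and 4 were close to theirs. The log2 differences within embryos ran from -1.33 in embryo 1 to 0.04 in embryo 2. The log2 fold change was -0.58 (SE 0.17, 95% interval -0.96 to -0.20), with an adjusted p of 0.0531 in edgeR's test, so that Hhip did not pass. DESeq2's Wald test called it lower (-0.60, adjusted p = 0.0101), as did edgeR's test without embryo 2 (-0.75, adjusted p = 0.0188), and the adjusted p ran from 0.0101 to 0.183 over all alternatives.

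Gli1 (ENSMUSG00000025407, chr10:127329882-127341974, minus strand) encodes the Gli factor that depends on the signal for its own transcription. Its levels were 236, 150, 181, 204 and 221 CPM in the control teeth of embryos 1, 2, 3, 4 and 6, and 147, 158, 143, 175 and 187 CPM in their IGF1 teeth. It was lower in 4 of 5 embryos, and the exception was embryo 2, whose control tooth was the lowest of its group. The log2 fold change was -0.28 (SE 0.09, 95% interval -0.48 to -0.07), with an adjusted p of 0.0834 in edgeR's test. Without embryo 2 it passed, at -0.37 with an adjusted p of 0.0334, and over all alternatives the adjusted p ran from 0.0334 to 0.236. Among all genes tested, 12.2% were lower at an unadjusted p under 0.05, and 4 of the 9 members were (Shh, Ptch1, Hhip and Gli1).

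The remaining Gli genes did not pass the threshold. Gli2 (ENSMUSG00000048402, chr1:118834132-119053619, minus strand), which acts mainly as an activator, ran from 83.1 to 122.6 CPM in the control teeth and from 89.4 to 98.5 CPM with IGF1. Gli3 (ENSMUSG00000021318, chr13:15463235-15730026, plus strand), which is processed to a repressor in the absence of ligand, ran from 213 to 269 CPM and from 202 to 253 CPM. The groups overlapped for both genes. The log2 fold changes were -0.10 (95% interval -0.29 to 0.09) for Gli2 and -0.07 (95% interval -0.21 to 0.06) for Gli3, and each was lower in 4 of 5 embryos without passing the threshold.

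The log2 differences of the readouts were set beside that of the ligand within each embryo. That of Gli1 was above that of Shh by 1.10, 1.92, 0.69, 1.06 and 0.52 in embryos 1, 2, 3, 4 and 6, a mean of 1.06 ± 0.54 (SD, n = 5). An exact sign-flip permutation test gave a 2-sided p of 0.0625, the smallest that 5 embryos allow, so that the threshold was out of reach. That of Ptch1 was above that of Shh by 0.34 to 1.64 in 5 of 5 embryos. For Hhip the gap ran from -0.23 to 1.88 and was above 0 in 4 of 5 embryos, all but embryo 6. Embryo 1 had the lowest log2 difference of Ptch1 (-0.80), Gli1 (-0.68) and Hhip (-1.33). Embryo 2 had the lowest of Shh (-1.85) and the highest of Ptch1 (-0.21), Gli1 (0.07) and Hhip (0.04). The order of the embryos by Shh was thus not their order by the readouts.

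**Figure D3:**
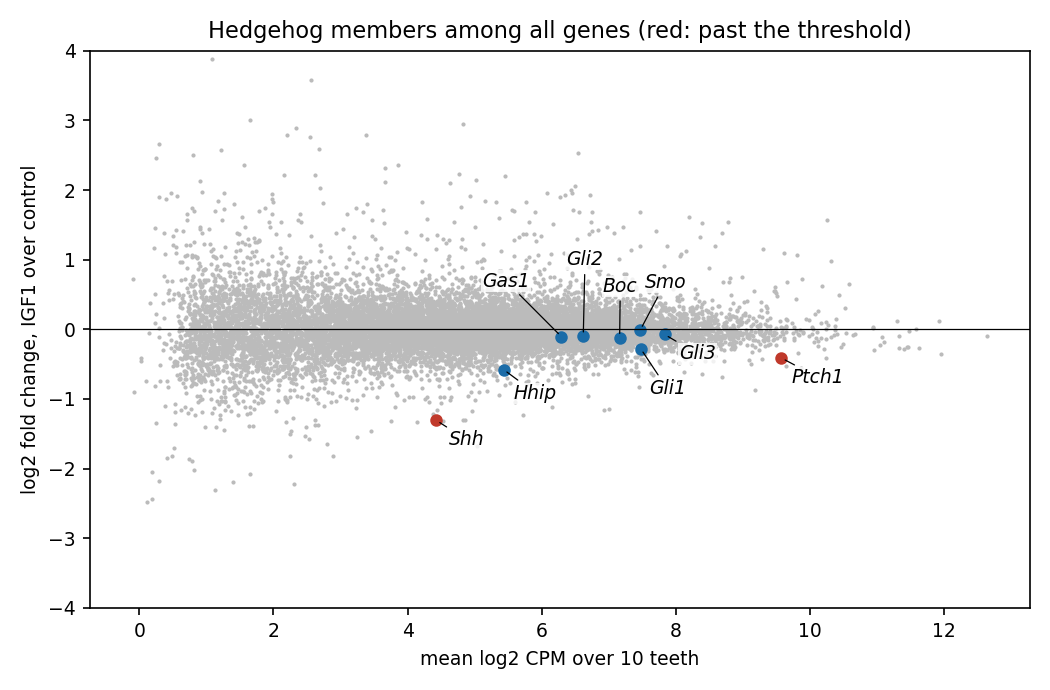
Log2 fold change with IGF1 against the mean log2 CPM over 10 teeth for all 14504 genes tested (grey) and the 9 members (red past the threshold, blue not past it). Shh and Ptch1 lie below the bulk of genes of their level, at -1.31 and -0.41.

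Levels were compared between genes per kilobase, with CPM divided by the merged length of the annotated exons. In the control teeth Ptch1 was highest with a mean of 62.3 CPM per kb, and Gli1 (39.8), Boc (33.6), Smo (31.8), Gas1 (27.8) and Gli3 (24.4) followed in CPM per kb. Gli2 (14.9), Shh (12.4) and Hhip (5.97) were lowest on the same scale. The ranges of neighbours in this order overlapped, other than those of Ptch1 and Gli1, of Gli3 and Gli2, and of Shh and Hhip. With IGF1 the mean of Shh was 5.21 CPM per kb, and its range of 2.63 to 10.5 overlapped with that of Hhip (2.51 to 6.10) and no longer with that of Gli2 (13.0 to 14.3). With the length of the longest transcript in its place, a choice made after seeing the data, Ptch1 in the control teeth came to 85.2 CPM per kb and Smo to 47.3, so that Smo then stood above Boc, and Gli3 came to 28.7, above Gas1.

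**Figure D4:**
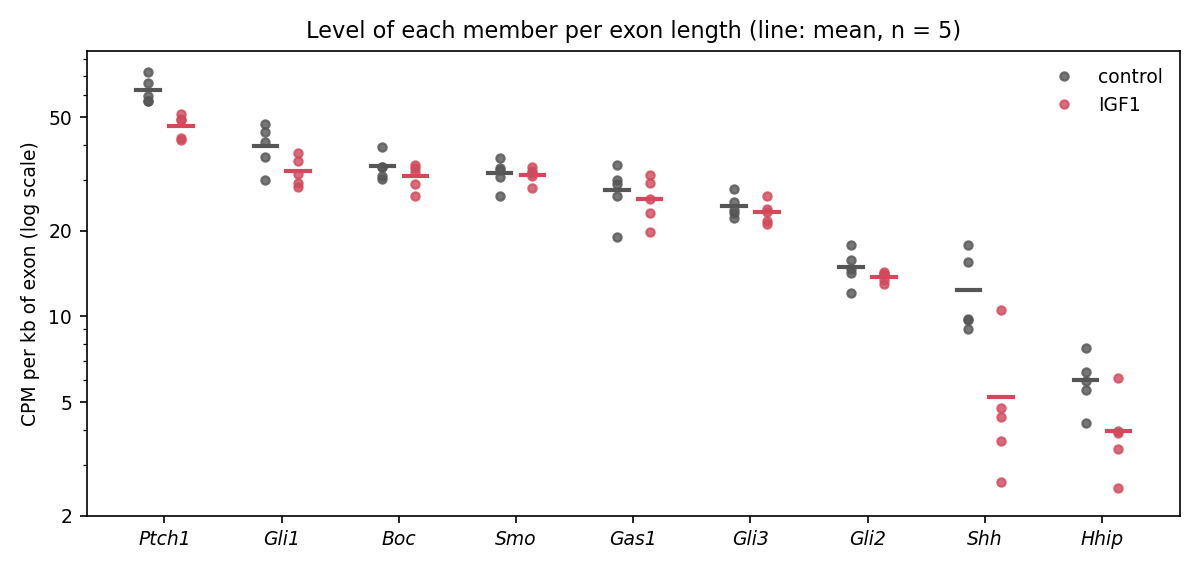
Level of each member in CPM per kb of exon (log axis) in the 5 control and 5 IGF1 teeth (points), with the mean as a line, ordered by the control mean. Shh leaves the level of Gli2 with IGF1 and comes to lie beside Hhip, from a mean of 12.4 to one of 5.21.

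Other genes of the pathway were taken from 5 lists with 44 genes in all, of which 43 were in the table and 39 could be tested. Of these, 5 were lower, 1 was higher and 33 did not pass the threshold, where 4.76% of all genes were lower and 6.72% higher. The median log2 fold change was -0.05 against -0.00380 over all genes. Without the embryo block 1 of the 39 passed (Prdm1) in place of 6.

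Among genes for ligands and their release, Ihh and Dhh, the remaining hedgehog ligands, had at most 11 counts in any library and were too low to test. Scube3, a secreted protein related to factors that help release the ligand, was lower in 5 of 5 embryos, with a log2 fold change of -0.37 (adjusted p = 0.0161 in edgeR's test). This call was lost without embryo 1, 2 or 4 and without the block. The lipid transferase Hhat, the release protein Disp1 and Scube1 did not pass.

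Of 4 other receptors and surface proteins tested, 0 passed by edgeR's test, and 0 by DESeq2's Wald test and by limma-voom. At an unadjusted p under 0.05 stood 2 of the 4, Gpc3 below 0 and Gpr161 above 0, and 26.5% of all genes tested. The co-receptor Cdon had a log2 fold change of 0.05 (95% interval -0.13 to 0.24), and Gpc3, a glypican with the highest level of this list (528 CPM in the control teeth), one of -0.18.

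Of the 14 cytoplasmic regulators, 0 passed by edgeR's test, and 0 by DESeq2's Wald test and by limma-voom, with log2 fold changes from -0.20 to 0.20. These include Sufu, which binds and restrains the Gli proteins (-0.05), the kinesin Kif7 (0.02), the kinase Csnk1a1, which was the most abundant (0.11), and subunits of protein kinase A. At an unadjusted p under 0.05, where 26.5% of all genes stood, were 4 of the 14, Spop, Btrc and Prkacb below 0 and Prkaca above 0.

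Of 8 genes for transport in the cilium, 2 were lower and 6 did not pass, where 4.76% of all genes were lower. At an unadjusted p under 0.05 stood 4 of the 8, all below 0, against 12.2% of all genes. Kif3a, a subunit of the motor toward the tip of the cilium, had a log2 fold change of -0.30 (adjusted p = 0.0295 in edgeR's test). Dync2h1, the heavy chain of the motor back to its base, had one of -0.30 (adjusted p = 0.0240). Both were lower in 5 of 5 embryos. The call of Kif3a was lost without embryo 1, 3, 4 or 6, that of Dync2h1 without embryo 2 or 6, and both without the block.

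Reported targets of the pathway in various tissues went in both directions. Of 9 tested, 2 were lower (Mycn and Prdm1), 1 was higher (Ccnd2) and 6 did not pass, where 11.5% of all genes passed. At an unadjusted p under 0.05 stood 6 of the 9, 4 below 0 and 2 above, against 26.5% of all genes. Mycn, a driver of growth and the cell cycle, had a log2 fold change of -0.74 (adjusted p = 0.00976 in edgeR's test), and its median went from 33.2 CPM in the control teeth to 21.6 CPM. Prdm1, a transcriptional repressor, had one of -0.69 (adjusted p = 0.00396) and went from a median of 31.4 to 18.4 CPM. Ccnd2, the cell cycle protein cyclin D2, had one of 0.39 (adjusted p = 0.00405) and was higher in 5 of 5 embryos, from a median of 505 to 719 CPM. The calls of Mycn and Ccnd2 were lost in the fit without the block (adjusted p = 0.163 and 0.120), and that of Prdm1 held in all 11 alternatives. Foxf1 and Foxf2 were below 0 in 5 of 5 embryos (-0.24 and -0.26) without passing. Mycn and Ccnd2 are also known targets of other growth signals.

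**Figure D5:**
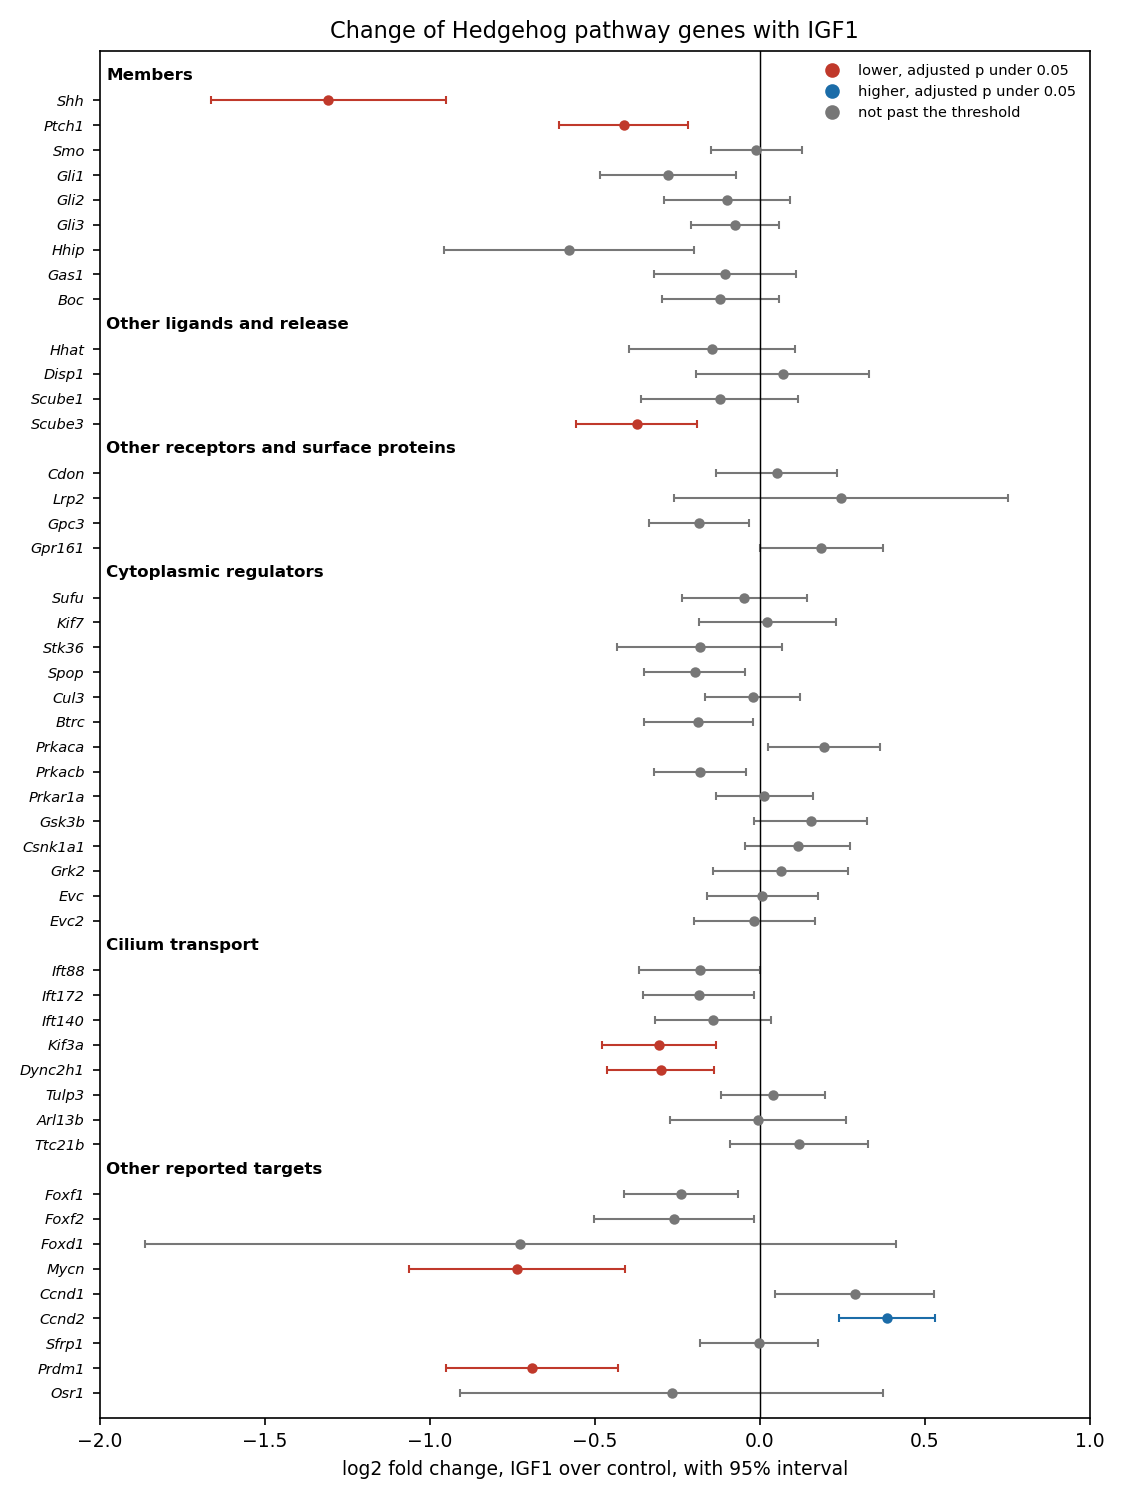
Log2 fold change with IGF1 and its 95% interval for the 9 members and the tested genes of the 5 further lists. Shh, Ptch1, Mycn, Prdm1, Scube3, Kif3a and Dync2h1 are lower and Ccnd2 is higher past the threshold, and the cytoplasmic regulators lie within 0.20 of 0.

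As Shh marks the enamel knot, 15 genes known from this signalling centre and the epithelium around it were read from the same fit. Of these, 3 were lower (Fgf3, Lef1 and Bmp2), 1 was higher (Slit1) and 11 did not pass, where 4.76% of all genes were lower and 6.72% higher. The median log2 fold change was -0.54 against -0.00380 over all genes. At an unadjusted p under 0.05 stood 9 of the 15, 8 below 0 and 1 above, against 26.5% of all genes. Among the 8 are Fgf4 and Dkk4, which reached the test through the control teeth, where they are high. The low-count filter asked for about 1.42 CPM in at least 5 teeth, which Fgf4 had in 5 control and 2 IGF1 teeth and Dkk4 in 5 control and 1 IGF1 teeth, so a lower value with IGF1 was favoured beforehand and the counts and the median of the list are no support for a direction. Fgf3, a growth factor for the adjoining mesenchyme, had lowest, median and highest levels of 10.2, 16.5 and 27.1 CPM in the control teeth and of 2.14, 4.94 and 23.3 CPM with IGF1. Its log2 fold change was -1.55 (95% interval -2.26 to -0.84, adjusted p = 0.0116 in edgeR's test). Lef1, which carries Wnt signals to the genome, had one of -0.54 (adjusted p = 0.00219), and Bmp2, a bone morphogenetic protein, one of -0.56 (adjusted p = 0.0367). Slit1, a guidance cue, had one of 0.94 (adjusted p = 0.0228). The call of Lef1 held in all 11 alternatives. That of Fgf3 was lost without the block (adjusted p = 0.237), and that of Slit1 without embryo 2, 3 or 6. That of Bmp2 was lost with DESeq2's Wald test (adjusted p = 0.120), without the block (0.294) and without embryo 2, 3, 4 or 6.

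The other 11 genes of the list did not pass, and those named here were chosen after their values were seen. Fgf4, held to be specific to the knot, had a median of 3.94 CPM in the control teeth and 0.988 CPM with IGF1, with a log2 fold change of -1.06 (95% interval -1.95 to -0.17). It was lower in 4 of 5 embryos, and the IGF1 tooth of embryo 6, at 9.71 CPM, was above every control tooth (at most 7.88 CPM). Fgf20 had 4 to 32 counts a control tooth and 2 to 22 counts an IGF1 tooth, and Dkk4 had 5 to 28 and 0 to 13. Fgf20 was lower in 5 of 5 embryos and Dkk4 in 4, all but embryo 6. Cdkn1a (0.37), which stops the cell cycle in the knot, lay above 0 and was higher in 3 of 5 embryos. Bmp4, Bmp7 and Msx2 were within 0.13 of 0. Without the embryo block 2 of the 15 passed (Lef1 and Slit1), and leaving out 1 embryo gave 2 to 5, with the fewest without embryo 2.

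Among the genes whose log2 CPM followed that of Shh most closely over the 10 teeth were Prdm1 (Pearson r = 0.986), Notum (0.977), Apod (0.962) and Dlx2 (0.959), among 15049 genes with a mean of at least 1 CPM. The teeth share embryos and the treatment, so r is given as a description. Without the teeth of embryo 6 the values were 0.946 to 0.981 for these 4 genes. Notum, an inhibitor of Wnt proteins, had a log2 fold change of -1.50, and the homeobox gene Dlx2 one of -0.75. Among the members, Ptch1 (r = 0.795, number 243 of the 15049) and Gli1 (0.729, number 474) came closest to Shh. Gli3 (0.703, number 584) followed close behind Gli1. Without embryo 6 the values were 0.827 for Ptch1, 0.645 for Gli1 and 0.550 for Gli3. The genes closest to Gli1 were Klhl21 (r = 0.966), Dgkd (0.947), Utp3 (0.937), Dclk3 (0.931) and Pja1 (0.929), and none of these 5 passed the threshold in edgeR's test (adjusted p from 0.0863 to 0.608).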

How the data were processed

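RNA of 10 single teeth (5 IGF1, 5 control) was measured after library preparation with the Ovation Mouse RNAseq System. The authors deposited estimated counts per gene as whole numbers, without normalization. The submitters' processing notes name FastQC 0.11.8, Trimmomatic 0.39, Salmon 0.99.0, DESeq2 and GRCm38. The transcript set, the summing to genes and the use of strand are not given in the sources used here, and every gene in the table has at least 10 counts in total. Exons of Gli1 overlap those of Arhgap9 on the opposite strand over 62 bases, and their reads could be split. Shh overlaps 9530036O11Rik over 446 and Gm26894 over 361 exon bases on the opposite strand, and Gas1 overlaps Gm48488 over 589. Gli1 also overlaps Gm47200 (265 bases), Gli3 overlaps Gm6556 (188) and Hhip overlaps Gm27820 (175). Of these genes, only Arhgap9 and the members are in the count table. Whether reads of the others were counted to the members is not known. Of the 18381 identifiers, 18276 matched GENCODE M21. Estimated counts were rounded before testing, which changed 0 values.

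Genes were filtered with filterByExpr, scaled by TMM and tested with edgeR's quasi-likelihood test with embryo as a block, because, per the labels, paired teeth share an embryo. After subtraction of group means, teeth of 1 embryo correlated at -0.04 to 0.32 (median 0.21). Teeth of different embryos correlated at -0.19 to 0.23 (median -0.05), so the ranges overlapped. Standard errors were taken as the fold change over the root of F. Log2 CPM used a prior count of 2. The spread is that between embryos. Members and lists were chosen with earlier results of these data known. Named genes are the members, list genes past the threshold, the most abundant gene of each list, and the 5 genes closest to Shh and to Gli1. Marker lists covered dental epithelium and mesenchyme, endothelium, macrophages, muscle, cartilage, Schwann cells, red blood cells and hypoxia. Some genes of these lists are not reported here, and counts and sums are over those that are. Other genes named were chosen after their values were seen. Alternatives were no block, leaving out each embryo, limma-voom, the Wald test and the size factors of DESeq2, no filter, and a minimum of 1 CPM in 5 samples. The software was Python 3.11.15 and, under R 4.3.3, DESeq2 1.42.0, edgeR 4.0.16 and limma 3.58.1.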

Additional observations from a re-analysis of the deposited data

Results flagged for a closer look

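Single teeth lay far outside the remaining 4 of a group, as judged by the gap to the nearest tooth over the whole range. The 63 tested members, other pathway genes and enamel knot genes gave 126 groups, of which 15 had such a tooth, where about 6.3 would by chance (1 in 20). That rate holds for values with a normal spread, while some levels here lie near 0. The groups also share the same teeth and are not independent, so both counts are given as a description. The IGF1 tooth of embryo 6 was high for 5 genes. It had 30.0 CPM of Shh against 7.49 to 13.5 CPM in the others, 31.3 CPM of Prdm1 against 14.5 to 19.0 CPM, and 23.3 CPM of Fgf3 against 2.14 to 5.47 CPM. It had 9.71 CPM of Fgf4 against 0.594 to 1.44 CPM, and 1.86 CPM of Dkk4 against 0 to 0.141 CPM. This tooth was below the control tooth of embryo 6 for Shh, Prdm1 and Fgf3 and above it for Fgf4 and Dkk4. The control tooth of embryo 6 had 152 CPM of Lef1 against 107 to 119 CPM.

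The control tooth of embryo 2 was low for Kif7, at 29.7 CPM against 41.5 to 44.7 CPM, and high for Prkacb, at 169 CPM against 130 to 139 CPM, and for Gsk3b, at 257 CPM against 204 to 217 CPM. The IGF1 tooth of embryo 2 had 73.8 CPM of Cdkn1a against 26.7 to 35.9 CPM. The control tooth of embryo 4 had 585 CPM of Gpc3 against 503 to 523 CPM, and 3.97 CPM of Dkk4 against 1.42 to 1.75 CPM. The IGF1 tooth of embryo 1 had 143 CPM of Cdon against 131 to 134 CPM, and 21.9 CPM of Foxf2 against 19.8 to 20.2 CPM. The IGF1 tooth of embryo 3 had 29.3 CPM of Disp1 against 42.5 to 46.1 CPM.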

How the results depend on the processing

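Shh passed the threshold in 11 of 11 alternatives and Ptch1 in 10. Of 99 values of the 9 members, 93 kept their direction and side of the threshold, 1 was weaker, 3 were stronger and 2 reversed; of 132 values of 12 other named genes, 108 were the same and 24 weaker. Without the replicate block, 887 genes changed in place of 1666, 1 other pathway gene passed in place of 6 and 2 enamel knot genes in place of 4, while Shh and Ptch1 were still called. Leaving out each embryo gave 986 (without embryo 4) to 1602 changed genes, 1 (without embryo 4) to 4 members (without embryo 2), and 2 to 5 enamel knot genes. The fits that leave out an embryo hold fewer teeth. The cause of the shifts in these fits, and in the fit without the block, was not tested. Smo, which was never called, ran from -0.0361 to 0.0117 in these fits and was above 0 without embryo 1 (0.0117) or 4 (0.00138). Shh had 44 to 336 counts a tooth, so its level is less precise than that of Ptch1 (2052 to 6857).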
